A study of Mus musculus with 4 samples.

Results

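The immunoproteasome and its peptide transporter were examined through 10 genes, taken by symbol from the 55536 genes with a row in the deposited gene tables. They were the inducible catalytic subunits Psmb8, Psmb9 and Psmb10, the constitutive subunits Psmb5, Psmb6 and Psmb7, the PA28 activator genes Psme1 and Psme2, and the transporter genes Tap1 and Tap2. All 10 had at least 1 TPM (a level scaled for transcript length and for the total of its library) in all 4 libraries. The libraries came from polyA-selected RNA of bone-marrow-derived macrophages of C57BL/6J mice, whose sex and age the labels do not give. Per the labels, the cells had received 100 ng/ml of lipid A for 12 h and a washout of 12 h, and were taken at 0 min of a further stimulation at 100 ng/ml. Other label fields name the first agent lipoprotein A. The 4 libraries form 1 group with no untreated cells, so no level below can be read as an effect of the pretreatment or as its absence. They are separate biosamples with 1 donor identifier, and their p-values measure only the spread between these libraries. Replicates 3 and 4 were made from 4 read files each and replicates 1 and 2 from 6 each, and values are given by these pairs.

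The proteasome is a barrel-shaped protease that cuts proteins into peptides. Its catalytic beta1, beta2 and beta5 positions are filled in most cells by constitutive subunits. Interferon and other inflammatory signals induce substitutes that are built into newly assembled particles, which gives the immunoproteasome, a form that cells of the blood and immune system also hold without a signal. PA28 is a ring-shaped cap of Psme1 and Psme2 products that opens the barrel. TAP, a dimer of Tap1 and Tap2 products, pumps cytosolic peptides into the endoplasmic reticulum, where class I molecules are loaded. Macrophages use this route to show fragments of the proteins they make or take up to CD8+ T cells.

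Psmb9, Tap1, Psmb8 and Tap2 are neighbours. In the mm10 assembly with GENCODE M21, Psmb9 lies at chr17:34181987-34187764 on the minus strand. Tap1 at chr17:34187553-34197225, Psmb8 at chr17:34197721-34201454 and Tap2 at chr17:34203527-34216321 follow on the plus strand, and the 4 genes span 34.3 kb within the class II region of the major histocompatibility complex. Psmb5 (minus strand), Psme1 (plus) and Psme2 (minus) lie on chromosome 14, Psmb6 on chromosome 11 (plus), Psmb7 on chromosome 2 (minus) and Psmb10 on chromosome 8 (minus).

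**Figure D1:**
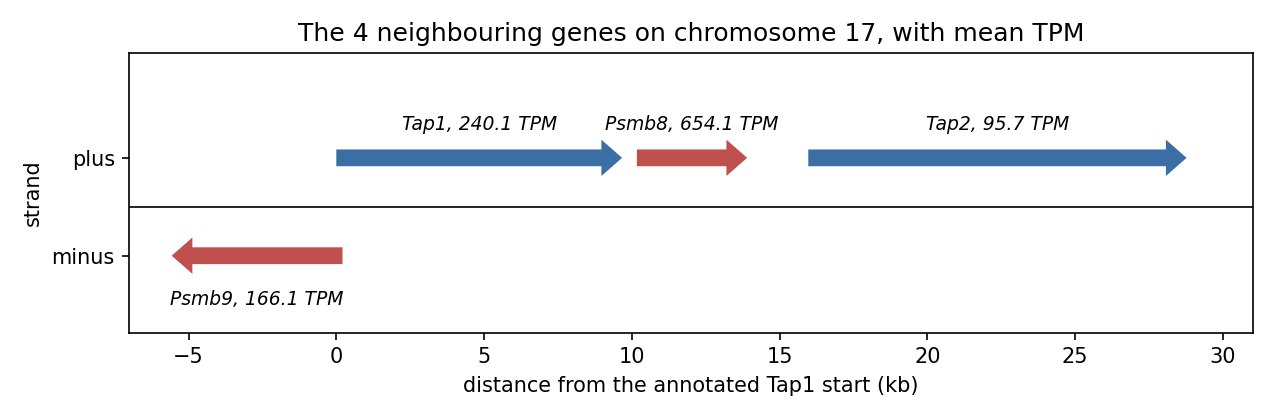
Map of the 4 neighbouring genes on chromosome 17 as annotated in GENCODE M21. The x axis is the distance from the Tap1 start in kb, arrows point in the direction of transcription, and labels give the mean TPM over 4 libraries, from 95.7 for Tap2 to 654.1 for Psmb8.

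In RefSeq (GRCm38.p6) the starts of Psmb9 and Tap1 are 225 bases apart and the genes run away from each other, so that both read out of the stretch shown first below. GENCODE M21 places the Psmb9 start further into Tap1. RefSeq windows of the 250 bases before the start were given for 8 of the 10 genes, without Psmb7 and Tap2. Those of Psmb8, Psmb5 and Psmb6 are shown because they hold a match to one of 5 searched motifs, which is printed in capitals. The RefSeq windows of Psmb8, Psmb9 and Psme1 lie wholly inside their GENCODE genes. The bases before the GENCODE starts of these genes were therefore not searched.
Psmb9-Tap1 (chr17:34187331-34187555, plus strand): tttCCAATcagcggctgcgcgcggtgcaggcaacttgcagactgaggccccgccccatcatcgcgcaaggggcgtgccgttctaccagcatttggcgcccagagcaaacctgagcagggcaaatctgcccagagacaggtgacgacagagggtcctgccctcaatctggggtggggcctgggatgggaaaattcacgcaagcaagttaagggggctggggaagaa
Psmb8 (chr17:34197945-34198194, plus strand): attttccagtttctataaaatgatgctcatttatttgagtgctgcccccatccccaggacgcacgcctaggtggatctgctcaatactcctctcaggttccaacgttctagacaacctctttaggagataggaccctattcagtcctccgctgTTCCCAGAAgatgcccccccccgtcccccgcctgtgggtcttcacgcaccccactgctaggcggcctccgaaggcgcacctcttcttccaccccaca
Psmb5 (chr14:54617996-54618245, minus strand): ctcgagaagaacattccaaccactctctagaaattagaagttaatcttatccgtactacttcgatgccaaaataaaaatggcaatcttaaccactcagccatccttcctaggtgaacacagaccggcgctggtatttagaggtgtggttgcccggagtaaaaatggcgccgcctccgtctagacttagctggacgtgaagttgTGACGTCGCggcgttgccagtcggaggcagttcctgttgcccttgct
Psmb6 (chr11:70525107-70525356, plus strand): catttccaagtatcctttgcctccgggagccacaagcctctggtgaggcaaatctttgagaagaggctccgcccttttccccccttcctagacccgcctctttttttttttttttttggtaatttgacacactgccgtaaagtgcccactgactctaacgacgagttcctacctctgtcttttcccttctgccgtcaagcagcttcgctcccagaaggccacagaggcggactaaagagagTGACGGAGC

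Motifs were searched on both strands. The gamma-activated site TTCNNNGAA matched in the Psmb8 window 97 to 89 bases before the start, against 7.02% of 32851 windows of all genes. The core of the antioxidant response element, TGACNNNGC, bound by NRF factors, matched 47 to 39 bases before the Psmb5 start and 9 to 1 bases before the Psmb6 start, against 10.2% of all windows. A CCAAT box, found in 33.8% of all windows, lay 8 to 4 bases before the Psmb9 start and 222 to 218 bases before the Tap1 start, which is the same match. The core of the interferon-stimulated response element, 2 runs of GAAA with 2 bases between them (2.98% of all windows), and the kappa B consensus (3.9%) were not in the windows of these 8 genes. A match describes letters in a window, and binding was not measured.

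Gene counts totalled 48875472 and 57126810 in replicates 3 and 4, against 25594340 and 27384162 in replicates 1 and 2. All 10 genes were abundant. By mean TPM they ranked between 186 and 1435 among 55536 genes, and together they took 0.17% and 0.167% of gene counts in replicates 3 and 4, against 0.222% and 0.268% in replicates 1 and 2. The bounds of the authors' credibility intervals lay within 93.4% to 106.9% of each posterior TPM in each library, so counting error was small beside the spread between libraries. The labelled cell type was checked first. All 8 macrophage markers, among them Lyz2, Cd68 and Adgre1, averaged at least 100 TPM. Markers of dendritic, T, NK, B, endothelial, fibroblast, neutrophil and erythroid cells averaged at most 3.87 TPM, except Kdr. Kdr, an endothelial receptor, averaged 15.4 ± 11.4 TPM (SD, n = 4). The other endothelial markers were Cdh5, with 2.50 ± 1.09 TPM, and Cldn5, at 0 in all 4 libraries.

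Among the inducible subunits Psmb8 RNA was the most abundant. Psmb8, which fills the beta5 position and gives chymotrypsin-like cutting, had 519 and 459 TPM in replicates 3 and 4, against 811 and 827 TPM in replicates 1 and 2, a mean of 654 ± 193 (SD, n = 4). Psmb10, the beta2 substitute, had 165 and 156 TPM in replicates 3 and 4, against 347 and 375 TPM in replicates 1 and 2 (261 ± 116). Psmb9, which fills beta1, had 126 TPM in both replicates 3 and 4, against 208 and 205 TPM in replicates 1 and 2 (166 ± 46.6). For all 3 genes both values of replicates 3 and 4 lay below both of replicates 1 and 2. The same held for 26.9% of the 13264 genes tested below. A second quantification, in the kallisto layout, gave smaller gaps. There Psmb8 had 480 and 426 TPM in replicates 3 and 4, against 582 and 591 TPM in replicates 1 and 2. Psmb10 had 158 and 154 TPM, against 223 and 273 TPM, and Psmb9 122 TPM in both, against 168 TPM in both.

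The constitutive subunits had another order. Psmb6, the constitutive beta1 subunit with caspase-like activity, was the highest of the 3, with 267 and 295 TPM in replicates 3 and 4, against 274 and 471 TPM in replicates 1 and 2 (327 ± 97.1). Here the pairs overlapped, and replicate 2 stood above the other libraries. Psmb7, the trypsin-like beta2 subunit, varied least of the 3, with 131 and 130 TPM in replicates 3 and 4, against 145 and 166 TPM in replicates 1 and 2 (143 ± 16.9). Psmb5, the constitutive beta5 subunit, had 37.5 and 34.4 TPM in replicates 3 and 4, against 148 and 181 TPM in replicates 1 and 2. Its mean of 100 ± 75.6 TPM therefore describes neither pair, and its coefficient of variation, 75.3%, was the highest of the 10 genes, followed by 44.6% for Psmb10.

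**Figure D2:**
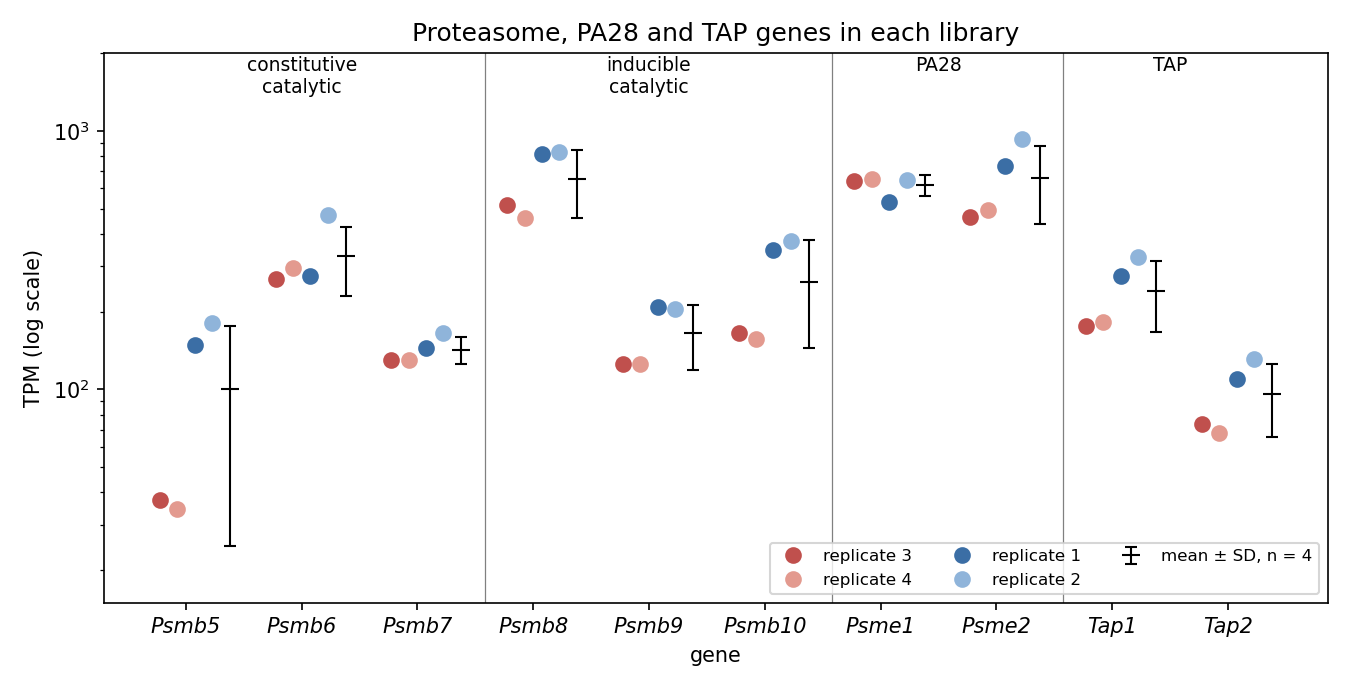
TPM of the 10 genes in each library on a log scale, with replicates 3 and 4 in red and replicates 1 and 2 in blue, and the mean ± SD of the 4 libraries in black. Psmb5 shows the widest gap between the pairs, with 37.5 and 34.4 TPM in replicates 3 and 4 and 148 and 181 TPM in replicates 1 and 2; Psme1 and Psmb6 overlap between the pairs.

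The balance between inducible and constitutive RNA differed among the 3 catalytic positions. It was read as a ratio within each library, which is not moved by library depth. At beta5, Psmb8 exceeded Psmb5 by 13.8-fold and 13.3-fold in replicates 3 and 4, against 5.47-fold and 4.57-fold in replicates 1 and 2. The mean log2 ratio was 3.02 ± 0.82 (SD, n = 4). The inducible subunit thus held 93.3% and 93.0% of the pair's TPM in replicates 3 and 4, against 84.5% and 82.0% in replicates 1 and 2.

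At beta2 the inducible form led by less. Psmb10 exceeded Psmb7 by 1.27-fold and 1.20-fold in replicates 3 and 4, against 2.40-fold and 2.26-fold in replicates 1 and 2 (mean log2 ratio 0.76 ± 0.53). This was 55.9% and 54.6% of the pair's TPM in replicates 3 and 4, against 70.6% and 69.4% in replicates 1 and 2. With coding transcripts alone the ratio was 1.16 in both replicates 3 and 4, against 1.55 and 1.56 in replicates 1 and 2. Replicates 3 and 4 thus had the higher inducible share at beta5 and the lower one at beta2.

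At beta1 the constitutive subunit led in TPM in all 4 libraries. The Psmb9/Psmb6 ratio was 0.470 and 0.427 in replicates 3 and 4, against 0.759 and 0.435 in replicates 1 and 2 (mean log2 ratio -0.98 ± 0.39). Psmb9 held 32.0% and 29.9% of the pair's TPM in replicates 3 and 4, against 43.2% and 30.3% in replicates 1 and 2. Replicate 1 stood apart here, and the other 3 libraries lay between 29.9% and 32.0%. Both the size and the shared direction rest on the length scaling. By expected counts, which are not divided by length, the ratio was 0.80 and 0.75 in replicates 3 and 4, against 1.42 and 0.85 in replicates 1 and 2, so that Psmb9 led in replicate 1, and the mean log2 ratio was -0.12 ± 0.42 (exact sign-flip permutation p = 0.625).

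**Figure D3:**
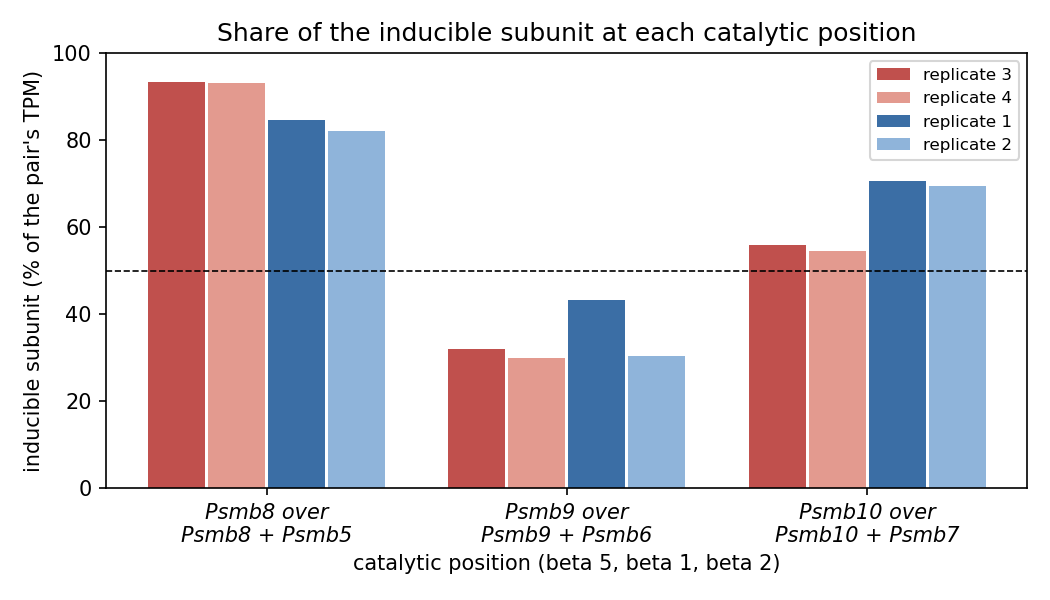
Inducible subunit as a percentage of the TPM of the inducible and constitutive gene of each catalytic position, 1 bar per library, with a dashed line at equal levels. All bars lie above the line for Psmb8 (82.0% to 93.3%) and Psmb10 (54.6% to 70.6%) and below it for Psmb9 (29.9% to 43.2%).

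These ratios were tested by an exact sign-flip permutation over the 4 libraries, two-sided, whose smallest possible p rounds to 0.13. Among 5 pairs tested, the 3 catalytic pairs and Tap1/Tap2 kept 1 direction in TPM in 4 of 4 libraries and reached that limit (exact p = 0.13, Benjamini-Hochberg adjusted p = 0.156), so none could pass a threshold of 0.05. RNA of both forms together, set against the median of 11 core subunits that the constitutive and immune particles share, was 3.20-fold and 3.23-fold at beta5 in replicates 3 and 4, against 5.13-fold and 4.56-fold in replicates 1 and 2. At beta1 it was 2.26-fold and 2.76-fold in replicates 3 and 4, against 2.58-fold and 3.05-fold in replicates 1 and 2. At beta2 it was 1.70-fold and 1.87-fold in replicates 3 and 4, against 2.63-fold and 2.45-fold in replicates 1 and 2. Each position held more catalytic RNA than the typical shared subunit in all 4 libraries.

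The PA28 genes stood at the level of Psmb8. Psme1, which encodes the alpha subunit of the cap, varied least of the 10 genes in the RSEM layout (coefficient of variation 9.2%, but 21.8% in the kallisto layout, where Psmb7 varied least with 8.6%), with 642 and 651 TPM in replicates 3 and 4, against 533 and 648 TPM in replicates 1 and 2 (618 ± 57.1). Psme2, the beta subunit, had 465 and 493 TPM in replicates 3 and 4, against 731 and 933 TPM in replicates 1 and 2 (655 ± 220). The mean levels were close, but the order of the 2 genes turned between the pairs of libraries. The Psme1/Psme2 ratio was 1.38 and 1.32 in replicates 3 and 4, against 0.729 and 0.695 in replicates 1 and 2 (mean log2 ratio -0.03 ± 0.53, exact sign-flip permutation p = 0.875). Psme2b, an annotated protein-coding gene on chromosome 11 that resembles Psme2, had 25.2 and 24.1 TPM in replicates 3 and 4, against 75.1 and 67.2 TPM in replicates 1 and 2. Reads may have been split between the 2 genes, so both values are uncertain, and with Psme2b added to Psme2 the mean log2 ratio was -0.13.

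Tap1 and Tap2 kept a nearly fixed ratio. Tap1 had 176 and 183 TPM in replicates 3 and 4, against 275 and 326 TPM in replicates 1 and 2 (240 ± 72.8). Tap2 had 73.4 and 68.2 TPM in replicates 3 and 4, against 110 and 131 TPM in replicates 1 and 2 (95.7 ± 30.2). Tap1 exceeded Tap2 by 2.40-fold and 2.69-fold in replicates 3 and 4, against 2.50-fold and 2.48-fold in replicates 1 and 2. The SD of this log2 ratio, 0.07, was the smallest of the 5 pairs. Tap1 and Psmb9 overlap on opposite strands over 212 bases in GENCODE M21. The sources used here do not give the strand setting, so reads of that stretch cannot be told apart.

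Ordered by mean TPM, the genes ran Psme2, Psmb8, Psme1, Psmb6, Psmb10, Tap1, Psmb9, Psmb7, Psmb5 and Tap2. Of the 9 neighbouring pairs in this order, 2 kept their direction in all 4 libraries: Psme1 above Psmb6 (log2 ratio from 0.46 to 1.26) and Tap1 above Psmb9 (0.40 to 0.67). The other neighbours changed places between libraries. Psme2 and Psmb8, for example, differed by log2 ratios between -0.16 and 0.17.

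For Tap2 most of the TPM went to a transcript that GENCODE classes as a retained intron and not as coding. Tap2-202 took 78.7% and 80.1% of the gene's TPM in replicates 3 and 4, against 76.0% and 75.6% in replicates 1 and 2. The coding transcript Tap2-201 took 21.3% and 19.3% in replicates 3 and 4, against 24.0% and 23.4% in replicates 1 and 2. The second quantification, in the kallisto layout, gave Tap2-202 between 73.9% and 77.4%. The annotated intron that Tap2-202 keeps, after exon 6 and before exon 7 of Tap2-201, is shown here with its first and last 2 bases in capitals, beside the intron that Psmb8-205 keeps.
Tap2-202 intron (chr17:34212068-34212229, plus strand): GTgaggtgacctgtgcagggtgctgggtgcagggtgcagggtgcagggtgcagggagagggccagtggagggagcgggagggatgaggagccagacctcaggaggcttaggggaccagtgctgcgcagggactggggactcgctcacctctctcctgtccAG
Psmb8-205 intron (chr17:34199381-34199570, plus strand): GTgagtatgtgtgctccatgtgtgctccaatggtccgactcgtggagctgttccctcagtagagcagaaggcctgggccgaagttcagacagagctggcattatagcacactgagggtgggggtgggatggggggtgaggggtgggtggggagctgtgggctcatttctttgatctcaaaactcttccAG

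The Tap2 intron has 162 bases, 67.3% of them G or C. Read on in the frame of the coding transcript it meets a stop at its codon 3. Tap2-202 also lacks 1040 bases that Tap2-201 holds at chr17:34203527-34204566, at the 5' end of the gene, so a table of transcripts cannot show which of the differences drew the reads. With coding transcripts alone, the mean log2 Tap1/Tap2 ratio was 3.36 ± 0.19 in place of 1.32 ± 0.07. The choice of transcripts moved the ratio of the TAP genes by more than the libraries did.

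The same class was smaller for Psmb8. Psmb8-205, which keeps 190 bases after exon 3 with a first in-frame stop at codon 21, took 17.6% and 16.4% of Psmb8 TPM in replicates 3 and 4, against 23.4% and 23.0% in replicates 1 and 2. Psmb8-205 also holds 245 further bases towards its 3' end. The coding transcript Psmb8-203 took 79.9% and 81.4% in replicates 3 and 4, against 73.0% and 72.2% in replicates 1 and 2. The pairs were apart in the same direction in the kallisto layout, with 20.1% and 18.5% for Psmb8-205 in replicates 3 and 4, against 25.9% and 25.6% in replicates 1 and 2.

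For Psmb9 the quantifications disagreed. Psmb9-207, annotated as a target of nonsense-mediated decay, took 5.8% to 8.2% of Psmb9 TPM in the RSEM layout and 20.8% to 38.8% in the kallisto layout. The coding transcript Psmb9-204 took 66.8% to 82.1% in the first and 49.9% to 65.1% in the second. The gene's total moved less, with means of 166 and 145 TPM. For Psmb10 the coding transcript Psmb10-201 took 91.6% and 96.5% in replicates 3 and 4, against 64.4% and 69.1% in replicates 1 and 2, the rest lying in short noncoding transcripts. The main coding transcripts Psmb5-201, Psmb6-201, Psmb7-201, Psme1-208 and Psme2-208 took at least 92.1% of their genes in all 4 libraries in the RSEM layout. For Tap1 in the RSEM layout, Tap1-206 took 73.0% to 77.0% and a second coding transcript, Tap1-201, 12.4% to 19.1%. In the kallisto layout Tap1-206 took 78.2% to 86.9% and Tap1-201 only 3.8% to 6.6%.

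**Figure D4:**
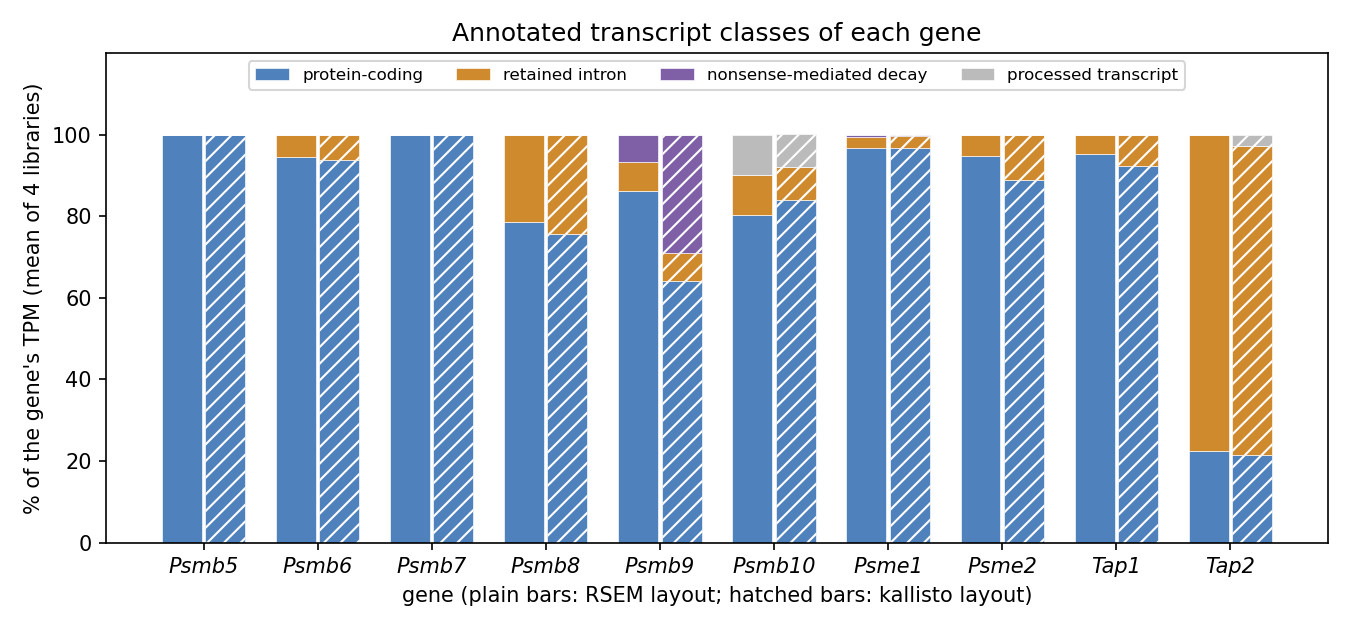
Share of each gene's TPM by GENCODE transcript class, as the mean of 4 libraries, in the RSEM layout (plain bars) and the kallisto layout (hatched bars). Retained-intron transcripts take 77.6% and 75.7% of Tap2 in the RSEM and kallisto layouts and 21.4% and 24.3% of Psmb8, and the decay class of Psmb9 takes 6.8% in the RSEM layout and 29.0% in the kallisto layout.

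Replicates 3 and 4 were then set against replicates 1 and 2 in a fit over all 13264 genes that passed a filter on low counts, all 10 included. This compares 2 pairs of libraries and no treatment. Psmb5 RNA fell, and so did Psmb9 and Psmb10. For Psmb5 the log2 fold change was -2.18 ± 0.16 (SE; edgeR quasi-likelihood test, Benjamini-Hochberg adjusted p = 0.0124). It was -0.86 ± 0.17 for Psmb9 (adjusted p = 0.0451) and -0.80 ± 0.16 for Psmb10 (adjusted p = 0.0480). The Psmb10 call was lost in edgeR without any 1 of the 4 replicates (adjusted p from 0.0585 to 0.258), and the Psmb9 call without replicate 1, 3 or 4 (0.0882 to 0.232). Both were lost with library size only (0.0557 for Psmb9 and 0.0689 for Psmb10). These were 3 of 10 genes called lower, where 3.61% of all tested genes were called lower, 1.88% higher and 5.5% in either direction.

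Psmb8, Psme2, Tap1 and Tap2 had log2 fold changes between -0.83 and -0.75 with adjusted p from 0.0557 to 0.0699 in edgeR, so they did not pass. DESeq2 called these 4 as well, giving 7 of 10 lower against 7.75% of the 13046 genes with an adjusted p. Psmb6 (-0.37 ± 0.21, edgeR adjusted p = 0.308), Psmb7 (-0.24 ± 0.15, adjusted p = 0.341) and Psme1 (0.15 ± 0.18, adjusted p = 0.629) passed in neither tool. In TPM, 8 of 10 genes had both values of replicates 3 and 4 below both of replicates 1 and 2, where 26.9% of all tested genes did; Psmb6 and Psme1 overlapped. In the TPM of the kallisto layout 7 of 10 were lower in this way and 2 were higher, Psmb7 and Psme1. The share of all genes was not counted in that layout. In the RSEM layout 3813 of the 13264 tested genes were higher in this way. By kallisto, Psmb7 had 126 and 125 TPM in replicates 3 and 4, against 104 and 120 TPM in replicates 1 and 2. Psme1 had 659 and 663 TPM in replicates 3 and 4, against 412 and 510 TPM in replicates 1 and 2. The median log2 fold change of the 10 genes was -0.77, beside -0.02 over all tested genes.

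Several library properties moved with the pairs. Counts in the kallisto layout totalled 1.07-fold and 1.06-fold the gene counts in replicates 3 and 4. They totalled 1.31-fold and 1.32-fold in replicates 1 and 2. Mitochondrial RNA made up 3.34% and 3.00% of gene counts in replicates 3 and 4, against 0.778% and 1.16% in replicates 1 and 2, and the mean fragment implied by the effective lengths in the kallisto layout had 223 and 233 bases in replicates 3 and 4, against 260 and 263 bases in replicates 1 and 2. The main transcripts of the 10 genes held 48.7% (Psmb7) to 58.9% (Tap2) G and C, and 9 of them stood above the median of 49.7% over tested genes. With offsets for GC content and length fitted in each library, only Psmb5 among the 10 remained called in edgeR (log2 fold change -1.82, adjusted p = 0.0185), where 1.96% of genes were called lower. The median of the 10 genes was then -0.51, beside 0.02 over all genes. The part of mitochondrial content, fragment length and the count ratio of the layouts in these differences was not tested. Fewer cells that carry an RNA and less of it per cell cannot be told apart in bulk libraries.

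**Figure D5:**
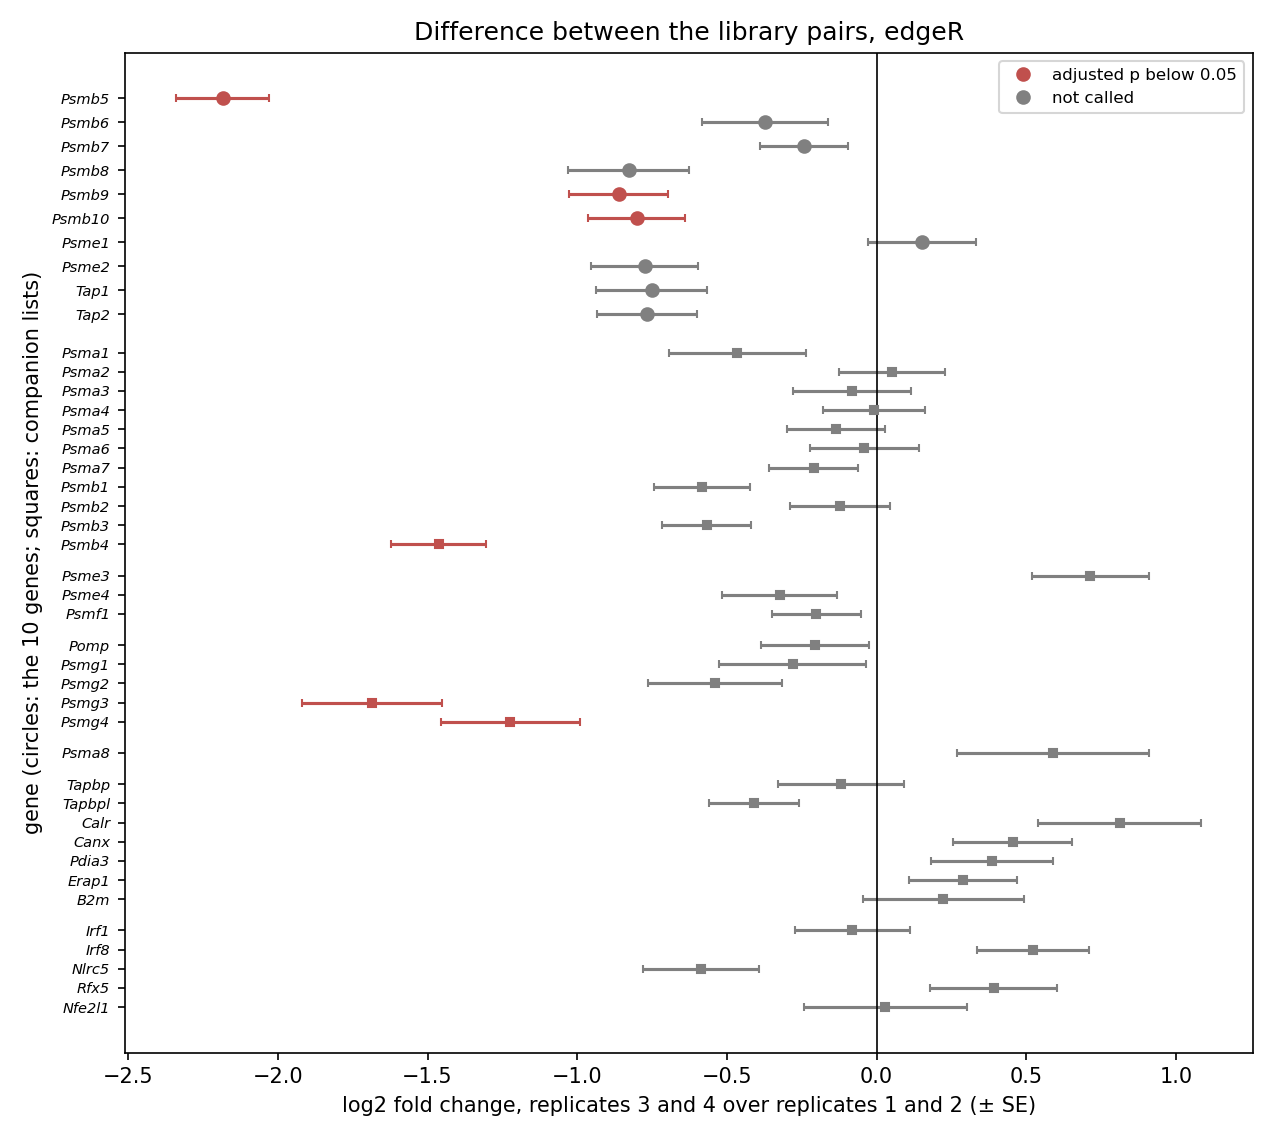
Log2 fold change of replicates 3 and 4 over replicates 1 and 2 with its SE from edgeR, for the 10 genes (circles) and for tested genes of the companion lists (squares), red where the adjusted p is below 0.05. Psmb5 lies lowest at -2.18, while Psmb6, Psmb7 and Psme1 lie nearest to 0 among the 10 genes.

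Companion genes of the pathway, taken from lists chosen by function, place these values. The 11 shared core subunits, which form the rest of the rings, had a median of mean levels of 172 TPM, led by Psmb2 (285 ± 16.9), Psma6 (266 ± 9.60) and Psma3 (259 ± 26.5 TPM). Of these 11, edgeR called 1 lower, Psmb4, where 3.61% of all tested genes were called lower. Psmb4 had 71.0 and 66.4 TPM in replicates 3 and 4, against 187 and 200 TPM in replicates 1 and 2 (log2 fold change -1.46, edgeR adjusted p = 0.0197). Thus Psmb5 was not the sole core subunit gene with such a gap.

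Assembly factors guide the subunits into rings. Pomp, the maturation factor that helps insert the inducible subunits, was by far the most abundant of 5, with 675 and 598 TPM in replicates 3 and 4, against 388 and 391 TPM in replicates 1 and 2. Its counts did not pass (log2 fold change -0.21 ± 0.18, edgeR adjusted p = 0.502), and the sign differs from that of the TPM, which are scaled by the length the authors' program estimated. Of the 5, edgeR called 2 lower, the ring chaperones Psmg3 and Psmg4, where 3.61% of all tested genes were called lower. Psmg3 and Psmg4 fell by 1.69 and 1.22 on the log2 scale (edgeR adjusted p = 0.0297 and 0.0440). With GC and length offsets Psmg4 no longer passed (log2 fold change -0.85, adjusted p = 0.0801). Psmb4, Psmg3 and Psmg4 were each not called in edgeR without replicate 3 or without replicate 4. Psmg4 had 16.1 and 16.5 TPM in replicates 3 and 4, against 34.1 and 43.7 TPM in replicates 1 and 2, and Psmg3 had 7.08 and 6.32 TPM in replicates 3 and 4, against 22.5 and 22.8 TPM in replicates 1 and 2.

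Other caps were rarer than PA28 RNA. Psme3, the nuclear activator, averaged 75.2 ± 24.3 TPM, Psme4, another activator, 36.2 ± 5.06 TPM and Psmf1, an inhibitor, 19.2 ± 1.27 TPM. Of these 3, edgeR called 0, with 1 at an unadjusted p below 0.05, where 27.4% of all tested genes were. DESeq2 called 1, Psme3, as higher, where it called 6.42% of all genes higher. Of the subunits limited to other tissues, Psmb11 of the thymus was at 0 TPM in all 4 libraries and Psma8 of the testis averaged 2.11 ± 0.36 TPM.

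Several partners downstream of TAP were abundant. B2m, the class I light chain, averaged 17390 ± 1665 TPM. Calr, a chaperone of the loading complex, had 1492 and 2098 TPM in replicates 3 and 4, against 503 and 850 TPM in replicates 1 and 2. Tapbp, tapasin, which bridges TAP and class I molecules, averaged 734 ± 55.5 TPM. Of 7 loading and trimming genes, edgeR called 0, with 2 at an unadjusted p below 0.05, near the 27.4% of all genes. DESeq2 called 1, Calr, as higher, where it called 6.42% of all genes higher. The median log2 fold change of the list was 0.29.

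Among 5 regulators set beside these genes, Irf1, an interferon-induced transcription factor of the inducible subunits and Tap1, averaged 227 ± 51.2 TPM. Nfe2l1, which drives constitutive proteasome genes when proteasome activity is low, averaged 172 ± 60.5 TPM, and Irf8, a factor of the macrophage lineage, 117 ± 24.6 TPM. Of the 5, edgeR called 0, with 2 at an unadjusted p below 0.05 (27.4% of all genes), and DESeq2 called 0. Their median log2 fold change was 0.03.

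Genes whose profile over the 4 libraries was most like the mean of Psmb8, Psmb9 and Psmb10 were sought among 6986 genes with a mean of at least 10 TPM, by the root mean square distance of centred log2(TPM + 1). The nearest were Ndufa13 (distance 0.02), Rps27l, Rpl18, Triap1 and Rps16. Rpl18 and Rps16 are ribosomal protein genes, Rps27l is a relative of one, Triap1 acts in mitochondrial lipid transfer, and Ndufa13 encodes a subunit of respiratory complex I. Ndufa13 had 37.8 and 35.7 TPM in replicates 3 and 4, against 67.2 and 66.8 TPM in replicates 1 and 2. Tap2 ranked 97, Tap1 143 and Psme2 232 in this list, while Psmb7, Psmb6, Psme1 and Psmb5 ranked 1438, 2008, 3542 and 4962. With 4 libraries such a profile is little more than the gap between the pairs.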

How the data were processed

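Per the labels, polyA RNA was sequenced. The authors deposited, per library, a gene table and a transcript table in the column layout of RSEM, with expected counts that carry no normalization and TPM scaled within the library, per the file headers, and a transcript table in the layout of kallisto with estimated counts and TPM. The deposited notes give mm10 and GENCODE M21. Programs, versions and the strand setting: not given in the sources used here. The authors' credibility intervals were read as deposited scores in TPM. At the depths given above, 3 counts correspond to 0.0525 to 0.117 CPM, for counting error only. There were 26345 rows outside GENCODE genes, which were left out.

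The members, the companion lists, the tests and the split of the libraries were chosen with earlier results of these data known. Ratios are log2((TPM a + 1)/(TPM b + 1)). Levels are mean ± SD. Rounded expected counts were fitted by the quasi-likelihood test of edgeR (version 4.0.16, R version 4.3.3), after filterByExpr at minimum count 10 and TMM scaling, with a Benjamini-Hochberg threshold of 0.05. The SE is the absolute log2 fold change over the square root of F. DESeq2 1.42.0 was the alternative tool. Both were tested on simulated counts for this comparison. At a simulated log2 fold change of size 1, edgeR recovered 57% of changed genes and DESeq2 62%. At size 2 they recovered 99% and 100%. Of the unchanged genes, edgeR called 6 and DESeq2 17. Changes were simulated only in genes with higher counts. No difference in GC content, length or fragments between the pairs was simulated, so these rates may not hold for the data. Named were all 10 members, of each companion list the 3 highest by TPM, those called and those under 1 TPM, the 5 nearest profiles, and leading transcripts. A regulator gene is not reported here. Kdr, Cdh5 and Cldn5 were named after their values were seen. Psme2b was looked at because it resembles Psme2. Promoters came from RefSeq (GRCm38.p6). Summaries and figures used scipy 1.17.1, numpy 2.4.6, pandas 2.3.3 and matplotlib 3.10.9 under Python 3.11.15.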

Additional observations from a re-analysis of the deposited data

Results flagged for a closer look

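A library far from the other 3 was found for 4 of 18 quantities, where chance flags about 1 in 20 groups. Psmb6 was at 471.4 TPM in replicate 2, against 267 to 295 TPM in the others. Psme1 was at 532.99 TPM in replicate 1, against 642 to 651 TPM in the others. The log2 ratio of Psmb9 to Psmb6 was -0.40 in replicate 1, against -1.22 to -1.08 in the others. The inducible share at beta1 was 43.15% in replicate 1, which is the same ratio on another scale. Without replicate 1 the mean log2 ratio of Psmb9 to Psmb6 was -1.17 ± 0.07 (SD, n = 3).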

How the results depend on the processing

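The 3 catalytic ratios and Tap1/Tap2 kept their direction under the alternatives run: other pseudocounts, the kallisto layout, coding transcripts alone, expected counts and each replicate left out. For Psmb9/Psmb6 by expected counts this holds for the mean alone (-0.12 ± 0.42, exact sign-flip permutation p = 0.625), and replicate 1 was reversed. The mean log2 Psme1/Psme2 ratio, near 0, turned to 0.084 in the kallisto layout, 0.003 with coding transcripts and 0.29 by expected counts, and ranged from -0.19 to 0.14 with 1 replicate left out; with Psme2b added, chosen after seeing the data, it was -0.13. Neighbours apart in every library numbered 2, 5 with coding transcripts and 2 to 4 with 1 replicate left out. Of all genes, 729 were called; this was 1848 in DESeq2, 360 with library size only, 2569 without a filter, and 51 (without replicate 4) to 640 (without replicate 2) with 1 replicate left out, where a lone library is assumed to vary like the others. Of the 10 genes, 3 were called, 7 in DESeq2, 1 with library size only, 6 without a filter, 1 with GC and length offsets, and 1 to 2 with 1 replicate left out. Psmb5 was called in all 11 settings, with log2 fold changes from -2.25 to -1.82 and adjusted p up to 0.0338. Psmb9 was called in 6 and Psmb10 in 5, both lost with library size only and with GC and length offsets, Psmb9 also without replicate 1, 3 or 4 and Psmb10 without any 1 replicate. In the kallisto layout the mean level of Psme1 was 561 ± 122 TPM and that of Psmb7 119 ± 10.2 TPM. Of 33 companion genes, 3 were called, where 729 of 13264 tested genes were. The companion count was 5 in DESeq2 (1848 of 13046 genes) and 5 without a filter (2569 of 22006 genes). It was 2 with library size only (360 of 13264 genes). With GC and length offsets it was also 2 (538 of 13253 genes), as Psmg4 was lost. The same totals over tested genes stand beside the counts of the 10 genes above. Fewer than 3 were called with 1 replicate left out. For the other changes between settings the cause was not tested. No paired analysis was possible because the series has 1 group.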
